A study of Arabidopsis thaliana with 12 samples.

Results

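The 43 genes described here encode the light-harvesting proteins of photosystem I (*LHCA*, 6 genes) and of photosystem II (*LHCB*, 15 genes) and the nuclear-encoded subunits of photosystem I (*PSA*, 12 genes) and photosystem II (*PSB*, 10 genes) of *Arabidopsis thaliana*. They were taken by locus identifier from a table of 33557 genes. The rule itself uses no measured value, but the genes were chosen with earlier results of these data known. RNA-Seq was performed on whole seedlings of the Columbia strain, with 3 libraries for each of 4 genotypes. The *bli ire1a* seedlings carried the *bli-1* allele and an *ire1a* mutation, the *bli ire1b* seedlings *bli-1* and an *ire1b* mutation, the *bli* seedlings *bli-1* alone, and the WT seedlings none of these, all mutations being homozygous by label. *bli-1* is a T-DNA insertion in *BLISTER*, a gene of plant growth and stress responses, and *IRE1A* and *IRE1B* encode ER membrane sensors of the unfolded protein response. All 3 mutant genotypes share *bli-1*, each mutated gene is represented by 1 allele, and *ire1a* or *ire1b* mutants with an intact *BLI* were not analysed here, so an effect of either *IRE1* mutation without *bli-1* cannot be told apart. The labels give the seedlings an age of 12 days, while the study's methods state another age, and the methods call the 3 libraries biological replicates without saying how plants were divided among them, so that p-values measure the spread between these libraries.

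Light energy is absorbed by chlorophyll bound to the light-harvesting proteins and is passed to the reaction centres, where photosystem II takes electrons from water and photosystem I hands them to ferredoxin. LHCB1, LHCB2 and LHCB3 form the trimers of the main antenna of photosystem II, LHCB4, LHCB5 and LHCB6 are monomers that link these trimers to the core, and LHCA proteins form a belt on photosystem I. The reaction centre proteins themselves are encoded in the plastid, whereas all genes described here are in the nucleus and their proteins are imported.

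Expression was deposited as FPKM, that is, fragments scaled to transcript length and to library size. Differences are given as log2 fold changes of FPKM + 0.1, fitted with limma to 20645 genes with a mean of at least 0.5 FPKM over the 12 libraries, and a gene was called higher or lower where its p, adjusted over all these genes by the Benjamini-Hochberg method, did not exceed 0.05. All 43 genes passed the filter, and none was at 0 in any library. *BLI* (AT3G23980) had 8.94 to 13.4 FPKM in the 9 *bli-1* libraries, against 16.8 to 17.7 FPKM in WT. *IRE1A* (AT2G17520) had 4.45 to 5.68 FPKM in *bli ire1a*, against 15.0 to 24.2 FPKM in the other 9 libraries, and *IRE1B* (AT5G24360) had 4.56 to 5.34 FPKM in *bli ire1b*, against 9.21 to 11.4 FPKM in the other 9, so each library matched its label.

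The 43 genes were among the most abundant transcripts of these seedlings. They held 8 of the 10 highest and 35 of the 50 highest mean FPKM values in WT. Together they held 17.9%, 18.3% and 16.9% of the summed FPKM of all genes in *bli ire1a*, 13.9%, 14.9% and 14.7% in *bli ire1b* and 14.6%, 12.9% and 13.9% in *bli*, against 21.2%, 20.1% and 20.2% in WT. All 9 mutant libraries lay below all 3 WT libraries, the *bli ire1a* libraries lay between WT and the rest, and *bli ire1b* and *bli* overlapped. The mean share differed from that of WT by -2.81 percentage points in *bli ire1a*, by -6.01 in *bli ire1b* and by -6.70 in *bli*. With 3 libraries against 3, the exact two-sided permutation test gave p = 0.1 in each of these 3 comparisons, the smallest p that this design allows, and 0.12 after Benjamini-Hochberg adjustment over the 6 comparisons of genotypes. In whole seedlings, fewer green cells and less of these RNAs per green cell cannot be told apart.

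Relative to WT, all 43 genes were called lower in *bli ire1b* and all 43 in *bli*, and 38 of 43 in *bli ire1a*, although under quantile normalization 7, 6 and 22 of them had the opposite sign, none of these past the threshold, and 25, 26 and 4 were called lower. None was called higher in any mutant than in WT by limma, and none was higher at an unadjusted p under 0.05. The median log2 fold change of the 43 genes was -0.35 for *bli ire1a*, -0.63 for *bli ire1b* and -0.71 for *bli* (a median fold of 0.784, 0.645 and 0.611), while the median over all 20645 genes was 0.0052, 0 and -0.0057. In every one of the 43 genes all 3 libraries of each mutant lay below all 3 libraries of WT. The share of all genes that separated in this way was not counted. Over all genes tested, 7.87% were called lower in *bli ire1a* than in WT, 20.1% in *bli ire1b* and 17.0% in *bli*, and 7.17%, 19.1% and 17.3% were called higher. Among the 1607 other genes with a mean of at least 100 FPKM, a comparison chosen after the data were seen, 13.5% were called lower for *bli ire1a*, 22.4% for *bli ire1b* and 21.8% for *bli*.

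The count in *bli ire1a* depended on single libraries and on the model, while those in *bli ire1b* and *bli* were 43 whichever library was left out. Without WT replicate 1 it was 10 genes, without *bli ire1a* replicate 3 it was 16 and without *bli ire1a* replicate 1 it was 21. It was 3 when only *bli ire1a* and WT were fitted and 16 without the filter on low values. The genes are not independent measurements, since *bli ire1a* replicate 3, *bli ire1b* replicate 1 and *bli* replicate 2 had the lowest value of their genotype in 40, 39 and 40 of the 43 genes, and WT replicate 1 had the highest of its genotype in 39.

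**Figure D1:**
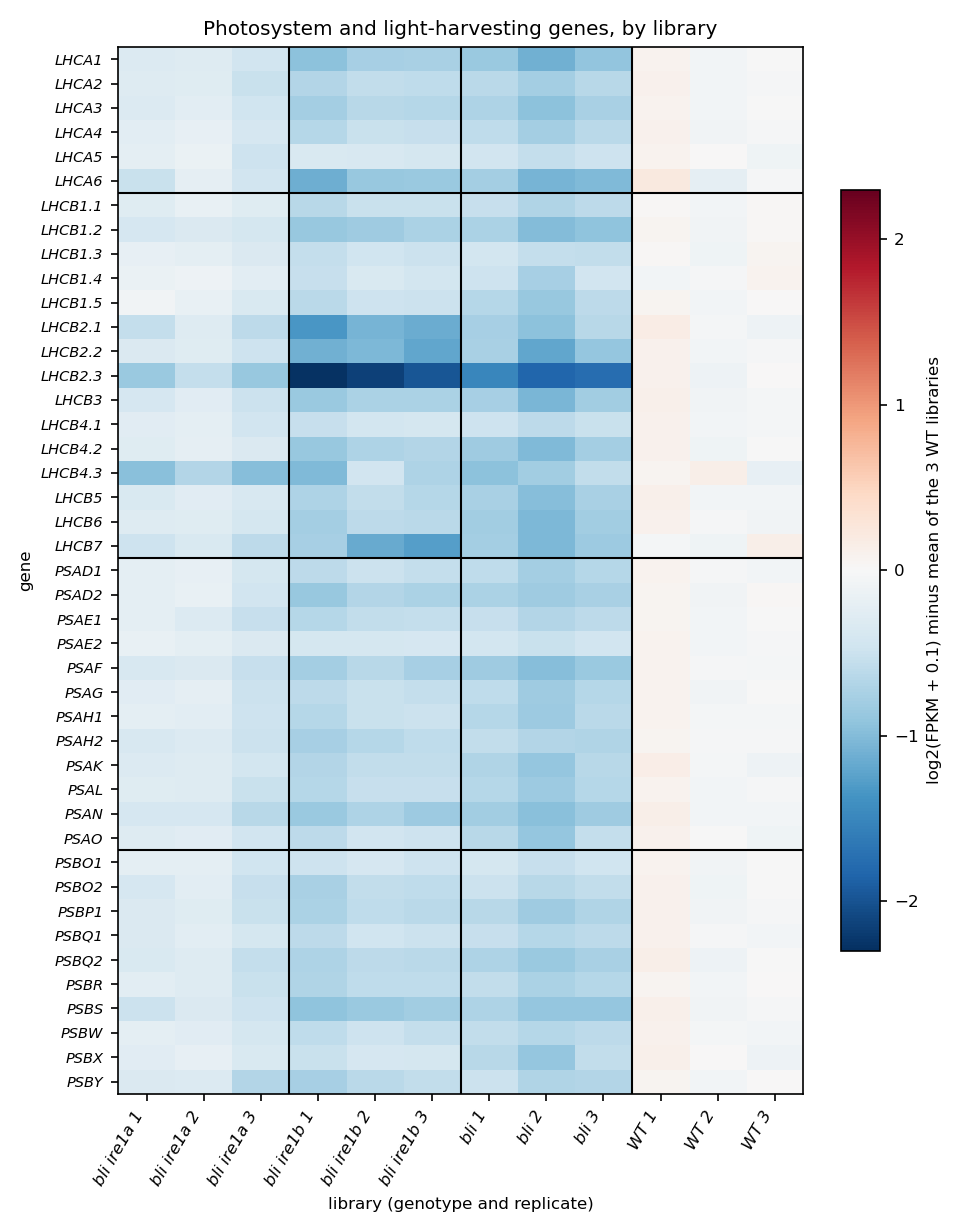
Level of each of the 43 genes (rows, grouped as *LHCA*, *LHCB*, *PSA* and *PSB*) in each of the 12 libraries (columns), as log2(FPKM + 0.1) minus the mean of the 3 WT libraries, with blue for lower and red for higher values. All mutant libraries are below the WT mean in every row, *bli ire1a* is paler than *bli ire1b* and *bli*, and *LHCB2.3* is the darkest row; under quantile normalization the median of *bli ire1a* against WT is 0.0012.

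The *LHCB* genes had the widest range of changes, and in *bli ire1b* the 3 *LHCB2* genes had the largest of them. LHCB2 is the trimer protein whose phosphorylation moves antenna between the photosystems. *LHCB2.3* (AT3G27690) had 1357, 1682 and 1345 FPKM in *bli ire1a*, 507, 552 and 632 FPKM in *bli ire1b* and 869, 690.5 and 729 FPKM in *bli*, against 2644, 2266 and 2484 FPKM in WT. Each genotype formed a separate group of values, with *bli ire1b* lowest and WT highest. Its log2 fold change against WT was -0.76 ± 0.12 (SE) for *bli ire1a*, -2.13 ± 0.12 for *bli ire1b* and -1.70 ± 0.12 for *bli*, with adjusted p = 0.00219, 6.10e-07 and 2.53e-06 from limma, so that it held 0.591, 0.228 and 0.308 of the WT level.

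*LHCB2.1* (AT2G05100) had 3283, 3949 and 3163 FPKM in *bli ire1a*, 1906, 2284 and 2189 FPKM in *bli ire1b* and 2834, 2511 and 3084 FPKM in *bli*, against 5422, 4677 and 4419 FPKM in WT. *LHCB2.2* (AT2G05070) had 3511, 3631 and 3198 FPKM in *bli ire1a*, 2048, 2168 and 1938 FPKM in *bli ire1b* and 2646, 1942 and 2376 FPKM in *bli*, against 4734, 4233 and 4313 FPKM in WT. Both were below WT in all 9 mutant libraries, and all *bli ire1a* libraries were above those of the other mutants. For *LHCB2.1* all *bli ire1b* libraries were also below all *bli* libraries, while for *LHCB2.2* these overlapped. In *bli ire1a* their calls, at -0.48 ± 0.12 and -0.36 ± 0.10 on the log2 scale (adjusted p = 0.0174 and 0.0394, limma), were lost without WT replicate 1 (adjusted p = 0.0735 and 0.137), as they were without *bli ire1a* replicate 1 (0.0672 and 0.0892) or *bli ire1a* replicate 3 (0.063 and 0.123), and that of *LHCB2.2* also without any one of 7 other libraries, and its sign turned under quantile normalization. In *bli ire1b* they passed a 2-fold change against WT, at -1.19 ± 0.12 and -1.11 ± 0.10 on the log2 scale (adjusted p = 2.05e-05 and 1.71e-05, limma). *LHCB2.1* and *LHCB2.2* share identical 100-base stretches in 9.9% and 12.4% of their transcripts, and how the authors' counting assigned such fragments is not given, so the split between them is uncertain. *LHCB2.3* shares none with any of the other 42 genes, but 36.3% of its annotated stretches overlap AT3G27700 on the opposite strand, a locus at 0.561% of its FPKM.

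*LHCB7* (AT1G76570), a rarely expressed antenna protein, was the lowest of the 43 genes. It had 7.84, 8.56 and 7.18 FPKM in *bli ire1a*, 6.45, 4.84 and 4.52 FPKM in *bli ire1b* and 6.34, 5.34 and 6.10 FPKM in *bli*, against 10.6, 10.3 and 12.1 FPKM in WT. All mutant libraries lay below WT, and *bli ire1b* overlapped *bli*. The call in *bli ire1a* (-0.48 ± 0.14, adjusted p = 0.0388, limma) was lost without any one of 8 of the 12 libraries (adjusted p = 0.0506 to 0.122). Against WT the log2 fold change was -1.06 ± 0.14 in *bli ire1b* (adjusted p = 0.000144, limma) and -0.88 ± 0.14 in *bli* (adjusted p = 0.000575). *LHCB2.3*, *LHCB2.1*, *LHCB2.2* and *LHCB7* were the 4 genes called at least 2-fold lower in *bli ire1b*, where 7.05% of all genes were, and *LHCB2.3* was the only such gene in *bli*, where 5.08% of all genes were.

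*LHCB1* genes encode the bulk of the trimers. *LHCB1.3* (AT1G29930) was the most abundant transcript of the whole table, with 27432, 26734 and 24795 FPKM in *bli ire1a*, 21579, 22794 and 22204 FPKM in *bli ire1b* and 23288, 21402 and 21107 FPKM in *bli*, against 32068, 29368 and 32856 FPKM in WT. All mutant libraries were below WT, all *bli ire1a* libraries were above those of the other mutants, and *bli ire1b* and *bli* overlapped. The log2 fold change was -0.26 ± 0.08 in *bli ire1a* (adjusted p = 0.0613, not past the threshold), -0.50 ± 0.08 in *bli ire1b* (adjusted p = 0.000716) and -0.52 ± 0.08 in *bli* (adjusted p = 0.00065, limma). The other 4 *LHCB1* genes had log2 fold changes of -0.38 to -0.17 in *bli ire1a*, -0.80 to -0.43 in *bli ire1b* and -0.88 to -0.56 in *bli*, and *LHCB1.4* and *LHCB1.5* were not called in *bli ire1a*, where the call of *LHCB1.1* was lost without any one of the 12 libraries (adjusted p of up to 0.153), while under quantile normalization *LHCB1.1* and *LHCB1.4* had the opposite sign in all 3 mutants. The 5 *LHCB1* genes share 1.5% to 4.4% of their 100-base stretches with each other, and *LHCB1.5* is overlapped over its whole length by AT2G08665 on the opposite strand, a locus that is not in the table, so their values are uncertain to that extent.

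*LHCB4.3* (AT2G40100), the least abundant of the 3 genes of the monomeric antenna protein CP29, was the gene with the largest change of the 43 in *bli ire1a*. It had 24.1, 29.4 and 23.8 FPKM in *bli ire1a*, 23.3, 34.8 and 28.7 FPKM in *bli ire1b* and 24.5, 27.1 and 31.7 FPKM in *bli*, against 49.4, 51.4 and 41.0 FPKM in WT. All mutant libraries lay below WT and the 3 mutants overlapped each other. Relative to WT its log2 fold change was -0.87 ± 0.15 for *bli ire1a*, -0.72 ± 0.15 for *bli ire1b* and -0.77 ± 0.15 for *bli* (adjusted p = 0.00386, 0.00331 and 0.00255, limma). *LHCB4.1* and *LHCB4.2*, the other CP29 genes, had -0.31 and -0.27 in *bli ire1a*, -0.46 and -0.75 in *bli ire1b* and -0.53 and -0.86 in *bli*, where under quantile normalization *LHCB4.1* turned sign, as both did in *bli ire1a*. *LHCB3*, *LHCB5* (CP26) and *LHCB6* (CP24) had -0.38 to -0.32 in *bli ire1a*, -0.77 to -0.64 in *bli ire1b* and -0.88 to -0.83 in *bli*, all called lower, although *LHCB5* and *LHCB6* had the opposite sign in *bli ire1a* under quantile normalization. The calls of these 3 genes in *bli ire1a* were lost without WT replicate 1, *bli ire1a* replicate 1 or *bli ire1a* replicate 3 (adjusted p of up to 0.0932), and without WT replicate 1 the *LHCB* genes called there were 3 of 15 instead of 12.

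**Figure D2:**
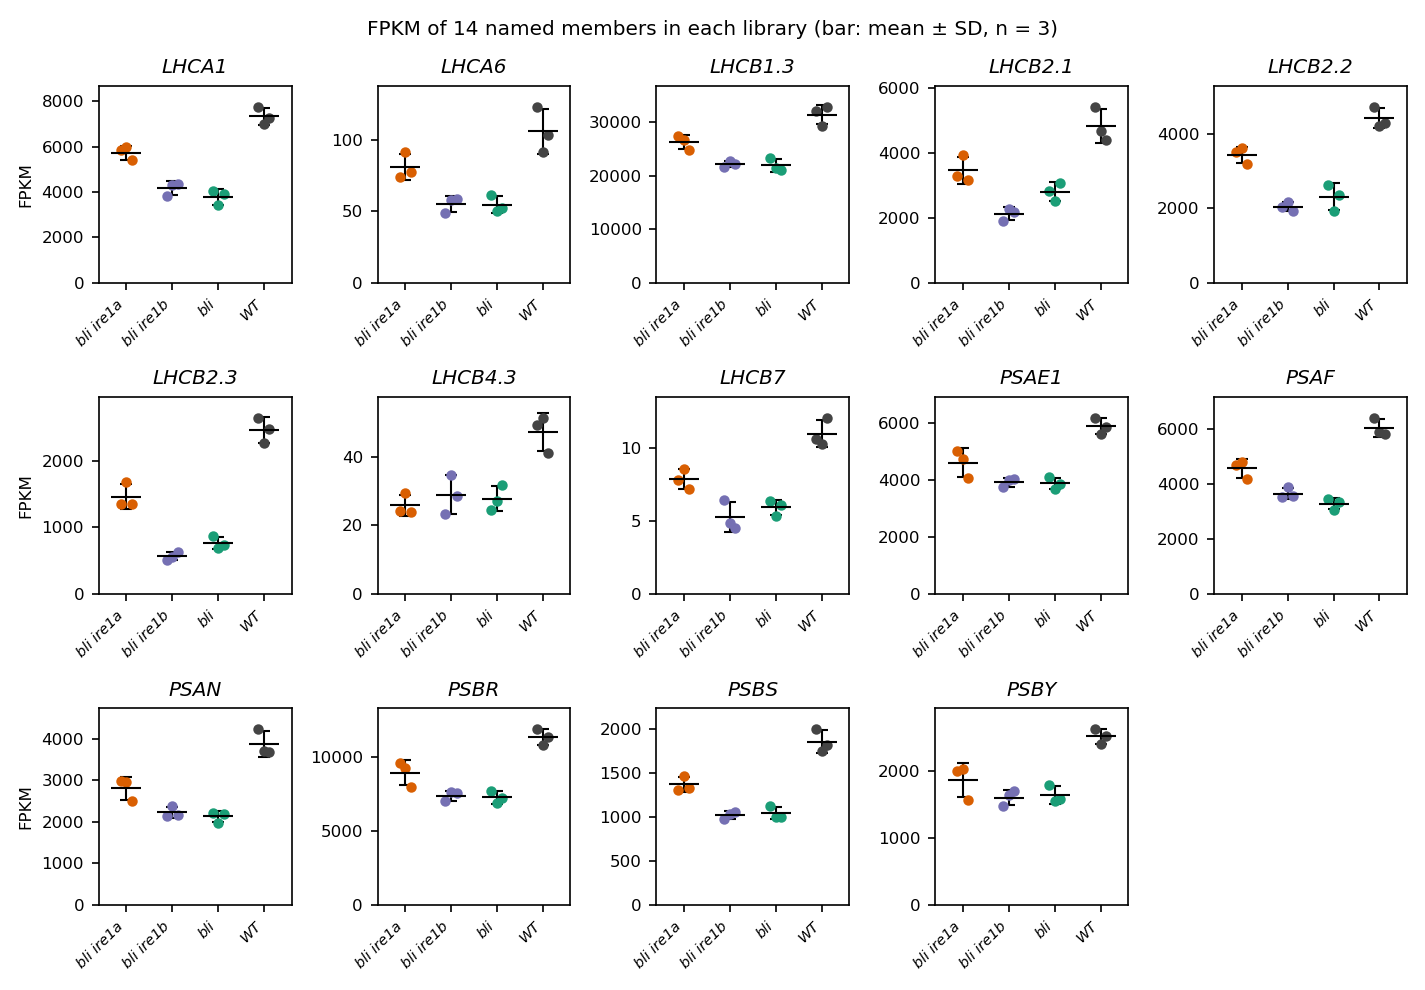
FPKM (linear axis from 0) of 14 genes in each library, with 1 point per library and a bar for the mean ± SD of the 3 libraries of each genotype. WT is highest in every panel; *LHCB2.3* has 1461 ± 191 FPKM for *bli ire1a*, 564 ± 63.3 for *bli ire1b* and 763 ± 93.7 for *bli*, against 2465 ± 189.5 in WT, while *LHCB4.3* has no step between the mutants.

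Ratios between antenna transcripts were also compared between genotypes, while antenna proteins were not measured. The summed FPKM of the 3 *LHCB2* genes was 12.9%, 14.8% and 13.4% of that of the 5 *LHCB1* genes in *bli ire1a*, 9.39%, 9.81% and 9.43% in *bli ire1b* and 12.6%, 11.6% and 13.1% in *bli*, against 17.2%, 16.2% and 15.0% in WT. The *bli ire1b* libraries were below all others and the WT libraries above all others, while *bli ire1a* and *bli* overlapped. Within the *LHCB2* sum, *LHCB2.3* made up 16.7% to 18.2% in *bli ire1a*, 11.04% to 13.3% in *bli ire1b* and 11.8% to 13.7% in *bli*, against 20.3% to 22.1% in WT. These ratios do not depend on the scaling of a library, were chosen after the values were seen and were not tested. The *LHCB* sum was 262% to 277% of the *PSB* sum in *bli ire1a*, 246% to 248% in *bli ire1b* and 245% to 250.3% in *bli*, against 254% to 266% in WT.

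**Figure D3:**
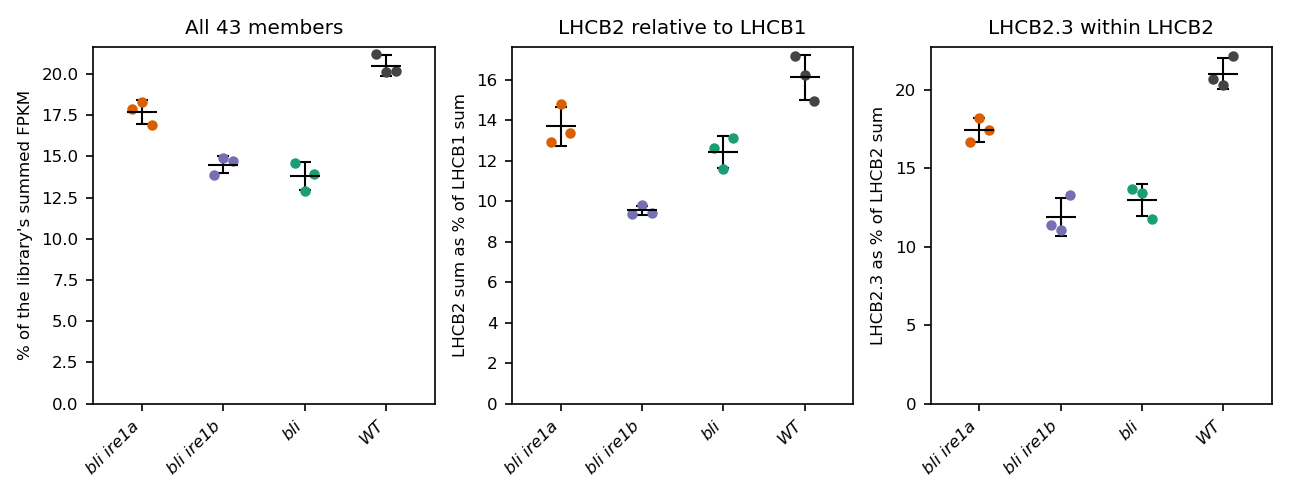
Share of the summed FPKM of all genes held by the 43 genes (left), *LHCB2* sum as a percentage of the *LHCB1* sum (middle) and *LHCB2.3* as a percentage of the *LHCB2* sum (right), with 1 point per library and a bar for the mean ± SD of each genotype (n = 3). The share averages 17.7% for *bli ire1a*, 14.5% for *bli ire1b* and 13.8% for *bli*, against 20.5% in WT, and in the middle panel *bli ire1b* stands below all other libraries.

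*LHCA* genes of the photosystem I antenna were all called lower in *bli ire1b* and *bli* (6 of 6 each), and 5 of 6 in *bli ire1a*, where *LHCA1*, *LHCA2*, *LHCA3* and *LHCA4* had the opposite sign under quantile normalization. *LHCA1* (AT3G54890), the most abundant, had 5865, 5974 and 5393 FPKM in *bli ire1a*, 3834, 4315 and 4368 FPKM in *bli ire1b* and 4053, 3409 and 3892 FPKM in *bli*, against 7752, 6998 and 7283 FPKM in WT. WT and *bli ire1a* each stood apart from the other genotypes, and *bli ire1b* overlapped *bli*. Its log2 fold change was -0.35 ± 0.08 for *bli ire1a*, -0.82 ± 0.08 for *bli ire1b* and -0.96 ± 0.08 for *bli* (adjusted p = 0.0175, 3.11e-05 and 1.25e-05, limma). Leaving out WT replicate 1, *bli ire1a* replicate 1 or *bli ire1a* replicate 3 left 0, 1 and 1 of the 6 *LHCA* genes called in *bli ire1a* and ended the call of *LHCA1* there (adjusted p = 0.0726, 0.0502 and 0.0606).

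*LHCA6* (AT1G19150), which together with LHCA5 joins photosystem I to the NDH complex of cyclic electron flow, had 73.9, 91.7 and 77.9 FPKM in *bli ire1a*, 48.5, 57.9 and 58.6 FPKM in *bli ire1b* and 61.3, 49.97 and 52.3 FPKM in *bli*, against 123, 91.8 and 104 FPKM in WT. Every mutant library was below every WT library, the highest *bli ire1a* library only just. The log2 fold change was -0.38 ± 0.12 in *bli ire1a*, not past the threshold (adjusted p = 0.0621, limma), -0.94 ± 0.12 in *bli ire1b* and -0.96 ± 0.12 in *bli* (adjusted p = 0.000163 and 0.000177). *LHCA5* had the smallest change of the role, -0.38 in *bli ire1b* and -0.49 in *bli*, both called.

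All 12 *PSA* genes were called lower in each of the 3 mutants, with log2 fold changes of -0.47 to -0.24 in *bli ire1a*, -0.80 to -0.40 in *bli ire1b* and -0.88 to -0.46 in *bli*, but under quantile normalization 7 of them turned sign in *bli ire1a*, *PSAE1* and *PSAO* did so in *bli ire1b*, and *PSAE1* in *bli*. In *bli ire1a* the count was 3 of 12 (*PSAF*, *PSAH2* and *PSAN*) without WT replicate 1, 6 without *bli ire1a* replicate 3 and 7 without *bli ire1a* replicate 1. *PSAE1* (AT4G28750), a stromal subunit that helps to dock ferredoxin and the most abundant of the role over all 12 libraries, had 5041, 4743 and 4069.9 FPKM in *bli ire1a*, 3744, 4000.5 and 4022 FPKM in *bli ire1b* and 4099, 3695 and 3869.6 FPKM in *bli*, against 6184, 5639 and 5881 FPKM in WT. Mutant and WT libraries did not overlap, all *bli ire1a* libraries were above those of *bli ire1b*, and *bli* overlapped both. Against WT the log2 fold change was -0.36 ± 0.08 for *bli ire1a*, -0.59 ± 0.08 for *bli ire1b* and -0.60 ± 0.08 for *bli* (adjusted p = 0.0157, 0.000252 and 0.000251, limma), and in *bli ire1a* the call was lost without WT replicate 1 (adjusted p = 0.0651).

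*PSAF* (AT1G31330), the subunit that binds the electron donor plastocyanin, had the largest change of the role in *bli*, with 4699.8, 4811 and 4175 FPKM in *bli ire1a*, 3517, 3879 and 3539.7 FPKM in *bli ire1b* and 3436, 3055 and 3337 FPKM in *bli*, against 6394, 5892 and 5818 FPKM in WT. The 4 genotypes did not overlap, and *bli* was lowest. Relative to WT its log2 fold change was -0.41 ± 0.08 for *bli ire1a*, -0.73 ± 0.08 for *bli ire1b* and -0.88 ± 0.08 for *bli* (adjusted p = 0.00624, 3.84e-05 and 1.25e-05, limma). *PSAN* (AT5G64040), a lumenal subunit on the same side, had 2972, 2947 and 2491 FPKM in *bli ire1a*, 2141, 2372 and 2164 FPKM in *bli ire1b* and 2216, 1974 and 2191 FPKM in *bli*, against 4234, 3697 and 3678 FPKM in WT. WT and *bli ire1a* stood apart, and *bli ire1b* overlapped *bli*. Its log2 fold change was -0.47 ± 0.09, -0.80 ± 0.09 and -0.86 ± 0.09 in *bli ire1a*, *bli ire1b* and *bli* (adjusted p = 0.00583, 4.87e-05 and 3.49e-05, limma).

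Several *PSA* proteins are encoded by gene pairs. In *bli* against WT *PSAD1* and *PSAD2*, whose products form the ferredoxin docking site, had -0.68 ± 0.08 and -0.76 ± 0.08, *PSAE1* and *PSAE2* -0.60 ± 0.08 and -0.46 ± 0.06, and *PSAH1* and *PSAH2*, whose product receives the mobile antenna, -0.71 ± 0.09 and -0.65 ± 0.07. The difference within a pair was not tested. *PSAG* and *PSAK*, which contact the LHCA belt, had -0.68 and -0.74 in *bli*, and *PSAL* and *PSAO*, which lie on the side that receives the mobile antenna, -0.72 and -0.69. *PSAG*, *PSAH1* and *PSAE1* overlap loci on the opposite strand over 55.8%, 47.0% and 24.0% of their stretches. For *PSAH1* that locus had 0.012% of its FPKM, and for the other 2 genes it is not in the table.

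*PSB* genes were called lower in 10 of 10 cases in *bli ire1b* and *bli*, and in 9 of 10 in *bli ire1a*, where *PSBX* was not called, but under quantile normalization *PSBO1* turned sign in all 3 mutants, *PSBR* in *bli ire1b* and *bli*, *PSBX* in *bli ire1a* and *bli ire1b*, and *PSBP1* and *PSBW* in *bli ire1a*. The count in *bli ire1a* was 4 without WT replicate 1 and 6 without *bli ire1a* replicate 3. *PSBR* (AT1G79040), a lumenal subunit near the oxygen-evolving complex and the most abundant of the role, had 9581, 9221 and 7965 FPKM in *bli ire1a*, 6986, 7596 and 7557 FPKM in *bli ire1b* and 7673, 6849.9 and 7239.7 FPKM in *bli*, against 11881, 10831 and 11350 FPKM in WT. All mutant libraries lay below WT, those of *bli ire1a* above the other mutants, and *bli ire1b* and *bli* overlapped. Against WT the log2 fold change was -0.35 ± 0.08 for *bli ire1a*, -0.62 ± 0.08 for *bli ire1b* and -0.65 ± 0.08 for *bli* (adjusted p = 0.0184, 0.000194 and 0.000177, limma), and in *bli ire1a* the call was lost without WT replicate 1, WT replicate 3 or *bli ire1a* replicate 3 (adjusted p = 0.0755, 0.0572 and 0.0586).

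*PSBS* (AT1G44575), the sensor of lumen acidity in the dissipation of excess light, had 1310.1, 1469 and 1326 FPKM in *bli ire1a*, 971, 1029 and 1058 FPKM in *bli ire1b* and 1127, 999 and 1002 FPKM in *bli*, against 1999, 1746 and 1819 FPKM in WT. WT and *bli ire1a* stood apart, and *bli ire1b* overlapped *bli*. Relative to WT its log2 fold change was -0.44 ± 0.07 for *bli ire1a*, -0.86 ± 0.07 for *bli ire1b* and -0.83 ± 0.07 for *bli* (adjusted p = 0.00324, 9.58e-06 and 1.30e-05, limma). *PSBY* (AT1G67740), a small membrane subunit, had 1992, 2029 and 1566 FPKM in *bli ire1a*, 1476, 1630.0 and 1689 FPKM in *bli ire1b* and 1789, 1549 and 1578 FPKM in *bli*, against 2619, 2395 and 2514 FPKM in WT. The mutants overlapped each other and none reached WT. Its log2 fold change was -0.44 ± 0.10, -0.65 ± 0.10 and -0.62 ± 0.10 in *bli ire1a*, *bli ire1b* and *bli* (adjusted p = 0.015, 0.00047 and 0.000769, limma), that of *bli ire1a* being lost without WT replicate 1 (adjusted p = 0.0601). The extrinsic proteins of water oxidation, *PSBO1*, *PSBO2*, *PSBP1*, *PSBQ1* and *PSBQ2*, had -0.77 to -0.46 in *bli*, and *PSBW* and *PSBX*, small membrane subunits, -0.61 and -0.69.

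The double mutants were then set against *bli*, to see what an added *IRE1* mutation changed. In *bli ire1a* 33 of 43 genes were called higher than in *bli* and none lower, and 42 of 43 had a positive log2 fold change, against 37 under quantile normalization. The median over the 43 genes was 0.39 and the median over all genes 0.0054. All 3 *bli ire1a* libraries lay above all 3 *bli* libraries in 37 genes, a separation that was not counted over all genes. Over all genes tested 6.62% were called higher and 7.65% lower, and among the 1607 other genes with a mean of at least 100 FPKM 9.71% were called higher. With upper-quartile scaling, in which 1762 genes of the whole table were called higher and 1227 lower instead of 1366 and 1579, 37 of the 43 genes were called higher.

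The largest difference was that of *LHCB2.3*, at 0.94 ± 0.12 on the log2 scale (adjusted p = 0.000562, limma). The call of *PSBR* was lost without any one of 10 libraries (adjusted p of up to 0.15), that of *PSAN* without *bli* replicate 2, *bli ire1a* replicate 1 or *bli ire1a* replicate 2 (up to 0.0584) and that of *LHCA6* without *bli* replicate 2 (0.0527). *LHCA1* followed *LHCB2.3* at 0.60 ± 0.08, *LHCB4.2* at 0.59 ± 0.08 and *LHCB2.2* at 0.58 ± 0.10 (adjusted p = 0.00105, 0.00101 and 0.00436). By role, 5 of 6 *LHCA*, 10 of 15 *LHCB*, 11 of 12 *PSA* and 7 of 10 *PSB* genes were called higher, or 3, 9, 3 and 2 without *bli* replicate 2. The 10 genes that were not called were *LHCA5*, *LHCB1.3*, *LHCB2.1*, *LHCB4.1*, *LHCB4.3*, *LHCB7*, *PSAE1*, *PSBO1*, *PSBO2* and *PSBY*. *LHCB4.3* alone had a negative log2 fold change, -0.11 with a 95% interval of -0.46 to 0.24. No gene passed a 2-fold change. The count was 17 without *bli* replicate 2, 20 without *bli ire1a* replicate 1, 21 without *bli ire1a* replicate 2 and 21 without the filter on low values, and 8 when only *bli ire1a* and *bli* were fitted. *LHCA1*, *LHCB2.3*, *LHCB4.2*, *LHCB5*, *LHCB6*, *PSAD2* and *PSBS* were called higher in *bli ire1a* under each of the 22 other fits.

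In *bli ire1b* none of the 43 genes was called higher or lower than in *bli* by limma, where 1.10% and 3.25% of all genes were. At an unadjusted p under 0.05, 3 genes were higher (*LHCB5*, *LHCB6* and *PSBX*) and 2 were lower (*LHCB2.1* and *LHCB2.3*). The share of all genes past that unadjusted threshold was not counted, so these 5 are not read as a result about the 43 genes. The median was 0.08 over the 43 genes and 0 over all genes. *LHCB2.3* and *LHCB2.1* had log2 fold changes of -0.43 ± 0.12 and -0.40 ± 0.12, with 95% intervals of -0.70 to -0.16 and -0.67 to -0.14 (adjusted p = 0.0624 and 0.0772, limma), and in both genes all *bli ire1b* libraries were below all *bli* libraries. Under quantile normalization *LHCB2.1* was called lower (adjusted p = 0.00874). Of all genes, 227 were called higher and 670 lower, or 337 and 578 with upper-quartile scaling and 281 and 502 with quantile normalization, and leaving out 1 library gave 50 (without *bli ire1b* replicate 1) to 257 (without WT replicate 2) higher and 200 to 797 lower, at the same libraries. A change that missed the threshold does not show that *bli ire1b* and *bli* were alike, and the intervals of the other 41 genes ran between -0.50 (*LHCB7*) and 0.48 (*PSBX*).

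**Figure D4:**
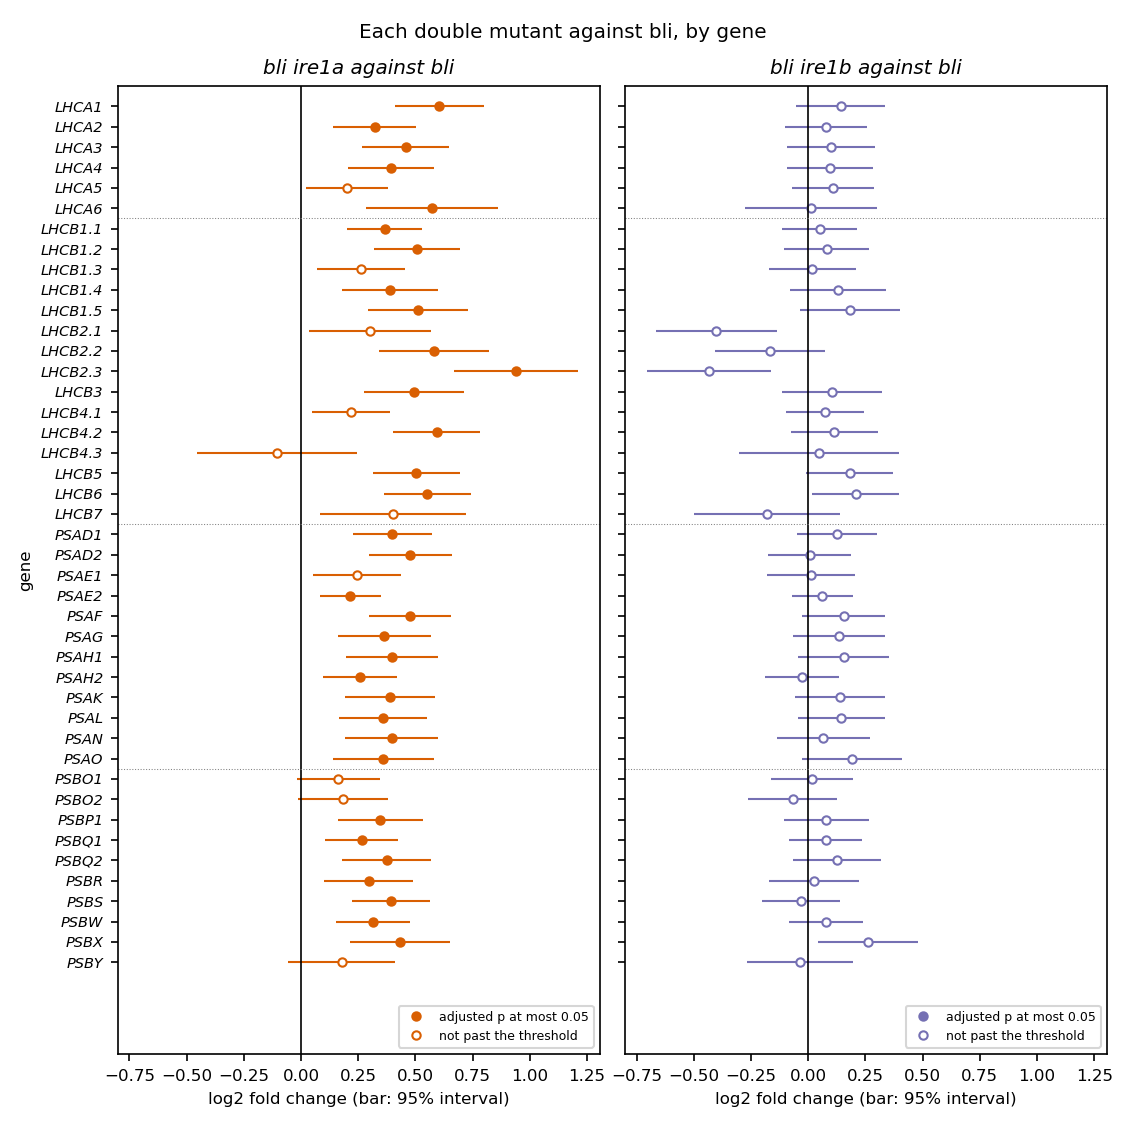
Log2 fold change of each of the 43 genes (rows) in *bli ire1a* against *bli* (left) and *bli ire1b* against *bli* (right). Bars are 95% intervals from the limma standard error with 8 degrees of freedom, and filled points passed an adjusted p of 0.05. In the left panel 42 of 43 points are above 0 (37 under quantile normalization) and 33 are filled, and in the right panel none is filled, with *LHCB2.1* and *LHCB2.3* farthest to the left. Both panels share the *bli* libraries.

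The double mutants were also compared directly. Of the 43 genes, 22 were called higher in *bli ire1a* than in *bli ire1b* and none lower, with a median of 0.27 and 42 positive values, or 38 under quantile normalization. Over all genes 7.45% were called higher and 5.30% lower. The *LHCB2* genes led, with 1.37 ± 0.12 for *LHCB2.3*, 0.75 ± 0.10 for *LHCB2.2* and 0.70 ± 0.12 for *LHCB2.1* (adjusted p = 6.23e-05, 0.00142 and 0.00326, limma). *LHCB2.3* was the only gene past a 2-fold change, which 1.74% of all genes passed. By role, 4 of 6 *LHCA*, 11 of 15 *LHCB*, 5 of 12 *PSA* and 2 of 10 *PSB* genes were called, or 1, 5, 1 and 1 without *bli ire1a* replicate 2. The calls of *PSAF*, *PSAN*, *LHCB7* and *LHCA6* were each lost without any one of 2 to 4 libraries, among them *bli ire1a* replicate 2 (adjusted p = 0.0839, 0.115, 0.0777 and 0.0648). The count was 8 without *bli ire1a* replicate 2, 9 without *bli ire1b* replicate 1, 10 without *bli ire1a* replicate 1, 13 without *bli ire1b* replicate 3, 9 without the filter on low values and 8 when only these double mutants were fitted. When libraries were scaled to the same FPKM total without the 43 genes, 32 of the 43 were called higher, and over all genes 1810 were called higher and 768 lower instead of 1538 and 1095.

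In the order of genotype means, 34 of the 43 genes were lowest in *bli*, then *bli ire1b*, then *bli ire1a*, and highest in WT. In 8 genes *bli ire1b* was below *bli*, namely *LHCB2.1*, *LHCB2.2*, *LHCB2.3*, *LHCB7*, *PSAH2*, *PSBO2*, *PSBS* and *PSBY*, and in *LHCB4.3* *bli ire1a* was lowest. The libraries of *bli ire1b* and *bli* overlapped in 34 of the 43 genes. Such overlap was not counted over all genes, so it is not read as a result about the 43 genes.

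Other genes of photosynthesis were examined from lists chosen by function. Over all genes, 7.87%, 20.1% and 17.0% were called lower than in WT in *bli ire1a*, *bli ire1b* and *bli*. The shares called higher were 7.17%, 19.1% and 17.3%. Of 14 genes of chlorophyll synthesis, 7 were called lower and 2 higher in *bli ire1a* than in WT, 9 lower and 1 higher in *bli ire1b*, and 11 lower and 1 higher in *bli*. *GUN4*, an activator of magnesium chelatase, had log2 fold changes of -0.56 ± 0.10, -1.33 ± 0.10 and -0.85 ± 0.10 in *bli ire1a*, *bli ire1b* and *bli*. *CAO*, the chlorophyll b synthase whose product the LHC proteins bind, had -0.33 ± 0.08, -1.19 ± 0.08 and -0.80 ± 0.08. *PORA*, the protochlorophyllide reductase of dark-grown seedlings, was called higher in all 3, at 1.55 ± 0.28, 0.89 ± 0.28 and 0.79 ± 0.28, at levels of 6.85 to 17.7 FPKM in the mutants, against 2.78 to 5.75 FPKM in WT. The adjusted p-values of these 3 genes ran up to 0.0449 in limma, and *PORA* was no longer called in *bli* with upper-quartile scaling or without any one of 8 libraries (adjusted p of up to 0.146), nor in *bli ire1b* without WT replicate 2, *bli ire1b* replicate 1 or *bli ire1b* replicate 3 (0.0777, 0.086 and 0.0732). In *bli ire1a* the count lower was 2 without WT replicate 1 or *bli ire1a* replicate 1 and 3 without *bli ire1a* replicate 3, and *CAO* was among the calls lost each time.

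Of 10 genes of electron transport and ATP synthase, 8 were called lower for *bli ire1a*, 9 for *bli ire1b* and 9 for *bli*, against 3, 9 and 8 under quantile normalization, where *PETE2* turned sign in *bli ire1a*. *FD2*, the main leaf ferredoxin that accepts electrons from photosystem I, had -0.53 ± 0.08, -1.01 ± 0.08 and -1.07 ± 0.08, while *FD1*, the minor leaf ferredoxin, was the gene called higher in *bli* (0.25 ± 0.07, adjusted p = 0.0129, limma), a call lost without WT replicate 3 (0.0536). *PETE2* (plastocyanin) and *ATPD* (a subunit of the ATP synthase) had -0.68 and -0.61 in *bli*, both called. All 10 Calvin cycle genes were called lower in each mutant, against 5 for *bli ire1a*, 8 for *bli ire1b* and 6 for *bli* under quantile normalization, where *RBCS1A* turned sign in all 3. Of the genes of the small subunit of Rubisco, *RBCS2B* had -0.67 ± 0.11, -1.25 ± 0.11 and -1.28 ± 0.11, *RBCS3B* -0.45, -0.90 and -0.80, and *RBCS1B* -0.81, -0.83 and -0.51, in the same order of genotypes. Without WT replicate 1 or *bli ire1a* replicate 1, 6 Calvin cycle genes were called in *bli ire1a*, *RBCS3B* was lost there without any one of 8 libraries, and *RBCS1B* was lost in *bli* without WT replicate 2 or *bli* replicate 3 (adjusted p = 0.0788 and 0.0845).

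Of 10 regulators of photosynthesis genes, 4 were called lower for *bli ire1a*, 8 for *bli ire1b* and 4 for *bli*, and 1 was called higher in each of the last 2. *GLK1* and *GLK2* encode transcription factors that activate LHC and chlorophyll synthesis genes. *GLK1* had 76.2, 92.2 and 80.2 FPKM in *bli ire1a*, 57.6, 49.5 and 64.3 FPKM in *bli ire1b* and 70.2, 48.1 and 54.6 FPKM in *bli*, against 163, 151 and 122 FPKM in WT. *GLK2* had 91.7, 92.6 and 86.3 FPKM in *bli ire1a*, 69.2, 63.6 and 73.2 FPKM in *bli ire1b* and 110.3, 78.2 and 74.5 FPKM in *bli*, against 191, 187 and 168 FPKM in WT. Every mutant library was below every WT library in both. The log2 fold changes of *GLK1* were -0.80 ± 0.15, -1.34 ± 0.15 and -1.34 ± 0.15 in *bli ire1a*, *bli ire1b* and *bli*, and those of *GLK2* -1.01 ± 0.12, -1.41 ± 0.12 and -1.07 ± 0.12, with adjusted p of at most 0.00575 in limma. Against *bli*, *bli ire1a* was higher in *GLK1* (0.54 ± 0.15, adjusted p = 0.037) and was not called in *GLK2* (0.06 ± 0.12, adjusted p = 0.789). *HYH*, a bZIP factor of light responses, was called lower in *bli ire1a* and *bli ire1b* (-0.99 ± 0.24 and -1.08 ± 0.24) and had -0.55 ± 0.24 in *bli*, not past the threshold. The count in *bli ire1a* was 2 without WT replicate 3 or *bli ire1a* replicate 1, and the call of *HYH* there was lost without any one of 4 libraries, among them WT replicate 1 and *bli ire1a* replicate 3 (adjusted p = 0.0612 and 0.0674). That of *GLK1* in *bli ire1a* against *bli* was lost without any one of 6 libraries, among them *bli* replicate 3 (0.103).

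Genes that insert and tune the antenna were examined next. Of 9 genes of LHC targeting, kinases and assembly, 3 were called lower in *bli ire1a*, 4 lower and 1 higher in *bli ire1b* and 4 lower in *bli*, with medians of -0.08, -0.03 and -0.13. *CPSRP43*, the chaperone that carries LHC proteins to the thylakoid, had -0.08, -0.31 and -0.48, the value in *bli ire1a* not being past the threshold. *STN7*, the kinase that phosphorylates LHCB1 and LHCB2, had -0.37, -0.48 and -0.30, and *HCF136*, an assembly factor of photosystem II, -0.21, -0.26 and -0.33, all called. In *bli ire1a* the count was 1 when libraries were scaled without the 43 genes, with *HCF136* among the calls lost, 1 without *bli ire1a* replicate 3 and 0 without WT replicate 1, and in *bli* the call of *STN7* was lost without any one of 4 libraries (adjusted p of up to 0.0681). Among 6 LHC-like stress proteins, 3, 3 and 4 were called lower in *bli ire1a*, *bli ire1b* and *bli*. *ELIP1* had -1.84 ± 0.20, -1.82 ± 0.20 and -1.38 ± 0.20 and *OHP1* -0.44 ± 0.12, -0.78 ± 0.12 and -0.68 ± 0.12, all called lower, that of *OHP1* in *bli ire1a* being lost without any one of 4 libraries, among them WT replicate 1 and *bli ire1a* replicate 3, where 1 gene of the list was called. *ELIP2* was called higher in *bli* (0.56 ± 0.18, adjusted p = 0.0334, limma) and had -0.32 ± 0.18 and 0.17 ± 0.18 in *bli ire1a* and *bli ire1b*, not past the threshold, while its call in *bli* was lost with upper-quartile scaling and without WT replicate 3, *bli* replicate 1 or *bli* replicate 2, and *bli ire1a* was below *bli* (-0.88 ± 0.18, adjusted p = 0.00898).

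Of 10 genes of chlorophyll breakdown and senescence, 9 were tested, since *SAG12* was listed at 0 in all libraries. In *bli ire1a* 3 were called higher than in WT, in *bli ire1b* 7 and in *bli* 7, and none was called lower by limma, nor at an unadjusted p under 0.05. *SGR2*, a regulator of chlorophyll breakdown, had 3.52, 4.70 and 3.32 FPKM in *bli ire1a*, 6.81, 7.602 and 8.70 FPKM in *bli ire1b* and 8.27, 9.48 and 7.02 FPKM in *bli*, against 2.08, 1.89 and 1.56 FPKM in WT. All 9 mutant libraries were above WT, those of *bli ire1a* below the other mutants. It was 2.02 and 4.03 times the WT level in *bli ire1a* and *bli ire1b* and 4.3 times in *bli*, all called, and against *bli* its log2 level fell by 1.09 in *bli ire1a* (adjusted p = 0.00218, limma). *SEN1*, a gene induced in senescence and in the dark, had 1.72 ± 0.31, 2.42 ± 0.31 and 2.68 ± 0.31. *SAG13* had 2.03 ± 0.54 in *bli ire1b* and 2.11 ± 0.54 in *bli*, with 0.99 ± 0.54 in *bli ire1a* not past the threshold, and its call in *bli ire1b* was lost without WT replicate 3 (adjusted p = 0.0508).

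**Figure D5:**
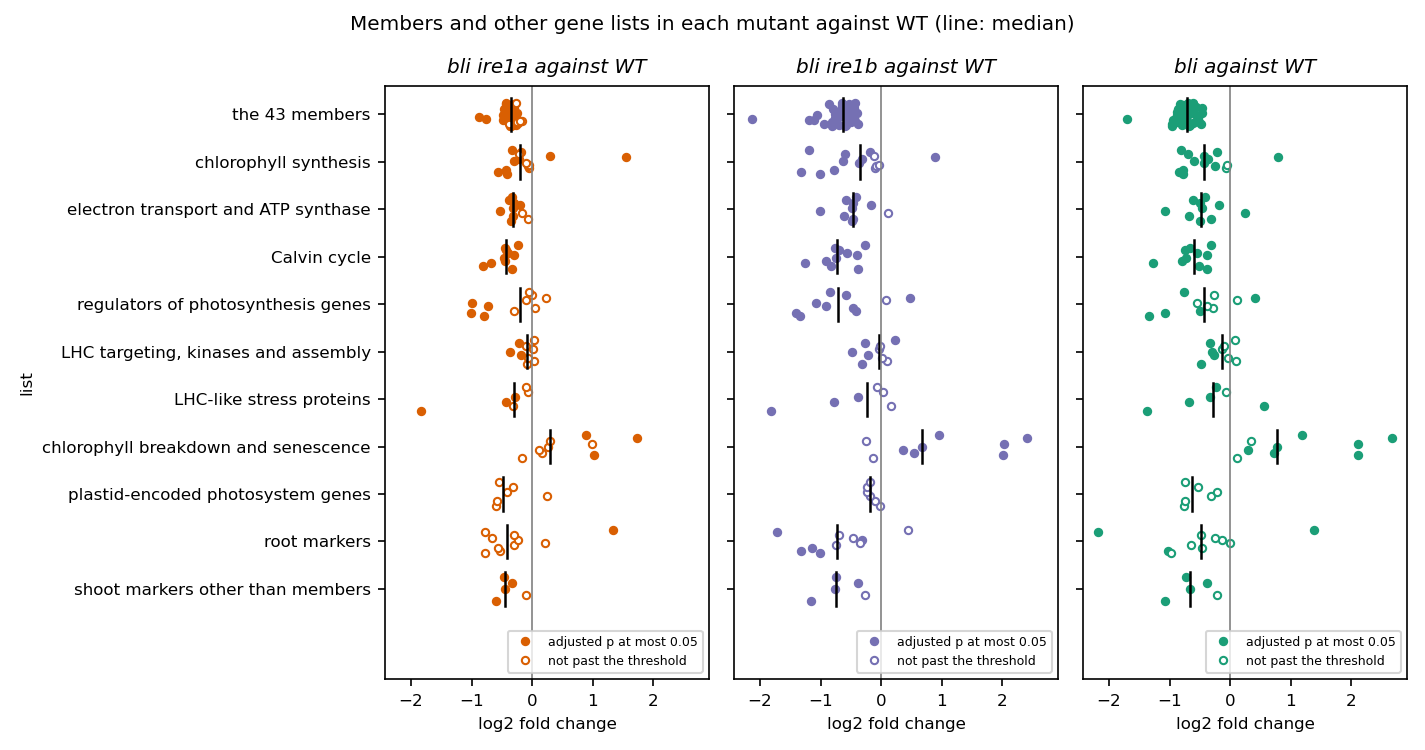
Log2 fold changes of the 43 genes and of 10 other lists in *bli ire1a*, *bli ire1b* and *bli* against WT, with 1 point per gene, filled where the adjusted p was at most 0.05, and a line at the median of each list. The 43 genes lie to the left of 0 in all panels, with medians of -0.35, -0.63 and -0.71 (0.0012, -0.22 and -0.22 under quantile normalization), and the chlorophyll breakdown list lies mostly to the right. All panels share the WT libraries.

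Of the 6 plastid-encoded photosystem genes (*psaA*, *psaB*, *psbA*, *psbB*, *psbC* and *psbD*), 0 were called in any comparison by limma and 0 passed an unadjusted p of 0.05. Their libraries overlapped in all comparisons, and plastid and mitochondrial genes together held 0.146% to 1.63% of a library's FPKM. Their standard errors on the log2 scale were 0.40 to 0.76, against 0.06 to 0.15 for the 43 nuclear genes, and their 95% intervals ran between -2.5 and 2.49, so that in each mutant the median change of the nuclear genes against WT lay within the interval of each of these 6.

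Markers of shoot and root were read beside these results. Of 5 shoot markers other than the 43 genes, 3 of which are also in the Calvin cycle list, 4 were called lower in each mutant (1 for *bli ire1a*, 4 for *bli ire1b* and 2 for *bli* under quantile normalization, where *RBCS1A* turned sign), and their summed FPKM was 21169 to 24116 in *bli ire1a*, 19291 to 21617 in *bli ire1b* and 20284 to 21494 in *bli*, against 28291 to 31352 in WT. *CA1*, a leaf carbonic anhydrase, had -0.60 ± 0.13, -1.15 ± 0.13 and -1.07 ± 0.13, *RCA* (Rubisco activase) -0.47, -0.75 and -0.73, and *PRK* (phosphoribulokinase) -0.45, -0.77 and -0.66, all called. Of 10 root markers, 8, 9 and 9 had a negative log2 fold change in *bli ire1a*, *bli ire1b* and *bli*. Their medians were -0.42, -0.72 and -0.48, against -0.35, -0.63 and -0.71 for the 43 genes. Past the threshold, 1 root marker was called higher in *bli ire1a*, 5 lower in *bli ire1b*, and 2 lower and 1 higher in *bli*, and none was at 0 in any library. Over all genes, 7.17% were called higher in *bli ire1a*, 20.1% lower in *bli ire1b*, and 17.0% lower and 17.3% higher in *bli*. The root marker counts in *bli ire1a* and *bli* are near these shares and are not read as a result about root markers. The count in *bli ire1b* was 3 under quantile normalization and 3 without any one of 6 libraries, with *EXPA7* and *PYK10* lost each time, and the gene called higher in *bli ire1a* was lost without any one of 4. Their summed FPKM was 1247 to 1502 in *bli ire1a*, 1057 to 1449 in *bli ire1b* and 1361 to 1608 in *bli*, against 1461 to 1711 in WT, nearly all of it *PYK10*, a glucosidase, without which the sums averaged 112.8, 88.8 and 108.2 in the mutants, against 120.0 in WT. The nitrate transporter *NRT2.1* and the expansin *EXPA18* had -2.18 and -1.03 in *bli*, and the aquaporin *TIP2;3* had 1.39, all called, that of *TIP2;3* being lost without WT replicate 2 or *bli* replicate 3 (adjusted p = 0.0539 and 0.0607). Most of the shoot markers are themselves photosynthesis genes, so shoot share and the level of such genes cannot be told apart by them. The share of shoot and root tissue in these samples was not measured, and its part in the results above was not tested.

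The upstream sequences of the 43 genes were searched for motifs of light and stress regulation, on both strands of the 250 bases before the annotated start in RefSeq (TAIR10.1, to which 97.8% of the table's identifiers matched). CCAATC, a motif bound by GLK factors, was in 11 of 43 genes (25.6%), against 10.2% of 27443 upstream windows of all genes. By role it was in 3 of 6 *LHCA*, 7 of 15 *LHCB*, 0 of 12 *PSA* and 1 of 10 *PSB* genes, and in all 3 *LHCB2* genes. The G-box CACGTG was in 9 genes (20.9%, against 6.5% of all), and ACGTGG, the core of an element of the unfolded protein response, counted only outside a G-box, in 7 (16.3%, against 5.5%). The I-box GATAAG was in 9 genes (20.9%, against 12.3%) and the evening element AAAATATCT in 1 (2.3%, against 2.4%). A match is a description of the letters only, and paralogs share ancestry.

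The 150 bases before the start are shown for the 3 *LHCB2* genes, which had the largest changes in *bli ire1b*, and for *LHCB1.3*, the most abundant gene and one with a smaller change, 5′ to 3′ on the strand of the gene, with CCAATC and the G-box in capitals. They lie at chr3:10255756-10255905 (plus strand), chr2:1800473-1800622 (minus), chr2:1824481-1824630 (minus) and chr1:10477735-10477884 (plus) of TAIR10.1.
*LHCB2.3*: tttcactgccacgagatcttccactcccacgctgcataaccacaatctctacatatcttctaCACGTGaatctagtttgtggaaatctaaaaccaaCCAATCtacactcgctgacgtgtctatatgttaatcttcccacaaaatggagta
*LHCB2.2*: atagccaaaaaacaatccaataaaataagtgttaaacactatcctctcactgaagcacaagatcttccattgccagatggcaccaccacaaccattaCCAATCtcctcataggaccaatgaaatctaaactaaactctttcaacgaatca
*LHCB2.1*: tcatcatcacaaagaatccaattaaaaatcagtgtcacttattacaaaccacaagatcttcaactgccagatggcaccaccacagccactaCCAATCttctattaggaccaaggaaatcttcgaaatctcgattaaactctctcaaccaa
*LHCB1.3*: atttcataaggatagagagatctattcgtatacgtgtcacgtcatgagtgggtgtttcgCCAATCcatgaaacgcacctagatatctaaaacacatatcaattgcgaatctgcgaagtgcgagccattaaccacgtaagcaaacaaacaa
*LHCB2.1* and *LHCB2.2* are 96.6% identical over their coding bases and lie close together on chromosome 2, and *LHCB2.3* is on chromosome 3, with 85.5% and 84.4% identity to them. All 4 stretches hold CCAATC, and of these 4 only that of *LHCB2.3* holds the G-box. The ACGTGG match of *LHCB1.3*, 20 bases before the start, is not marked. In *bli ire1b* the levels of these 4 genes against WT were 0.228, 0.464, 0.440 and 0.707. Of the 43 genes 9 hold a G-box, among them *LHCB4.1* and *PSAE2*, which changed less in *bli ire1b* than *LHCB2.3*. A link between motifs and changes was not tested.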

How the data were processed

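Seedling RNA was extracted with Trizol and made into Illumina TruSeq libraries, 3 for each of 4 genotypes. Per the study's methods, low-quality reads were removed by SeqPrep and Sickle and alignment to TAIR10 was by TopHat. The authors deposited 1 table of FPKM per gene and library. The source of these FPKM, the handling of fragments shared by paralogs and the use of strand are not given in the sources used here. The submitters' processing notes name Bowtie 0.12.2 and a mouse build, neither of which matches the study's methods. The deposited FPKM hold no read counts, so depth and counting error are unknown for single values. All 12 columns were assigned by their labels, and 0 were left unused.

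log2(FPKM + 0.1) was tested with limma 3.58.1 in R 4.3.3 (mean-variance trend, 8 residual degrees of freedom), with all 4 genotypes in 1 model and 6 comparisons. The fold changes understate those of genes near 0.1 FPKM. A summed share was compared by an exact permutation test. On simulated data (20418 genes, *bli* against WT), 91 of 97 genes changed by 1 on the log2 scale and 51 of 103 changed by 0.5 were called, all in the right direction, with 10 of 20218 unchanged genes. The simulated noise was independent between genes and few genes were changed, unlike in the data. These rates therefore need not hold for the calls reported here.

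The 43 genes and the other lists were chosen with earlier results of these data known. Values of every library were given for the most abundant gene of each role, the gene with the largest log2 fold change of each role in each mutant against WT, and genes called with at least a 2-fold change. Of each other list, up to 3 called genes with the largest changes were named. *FD1*, the *LHCB2* to *LHCB1* ratios, the genes of at least 100 FPKM and the scalings and left-out libraries of the other lists were chosen after the values were seen.

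Alternatives were pseudocounts of 1 and 0.01, no filter, a mean of at least 1 FPKM, fits of only the groups compared, a replicate block, upper-quartile scaling, quantile normalization, scaling without the 43 genes, no mean-variance trend, a call by a 2-fold change with unadjusted p, leaving out each of the 12 libraries, and, for the share, a total without plastid and mitochondrial genes. Names, positions and sequences came from RefSeq (TAIR10.1), matched by locus identifier for 32810 genes.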

Additional observations from a re-analysis of the deposited data

How the results depend on the processing

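Of 276 recomputed counts, 251 stayed within 1.5 times the reported one, and 110 of 114 medians and 21 of 21 share differences moved by less than the spread between libraries. Many of these counts were 0 or 43 in the main fit, and a count of 0 was scored as unchanged wherever it stayed at 0. The total of 251 is therefore no measure of how stable the *bli ire1a* counts were, which are given singly below. Quantile normalization, which forces all libraries to 1 distribution whose top is held largely by these genes, gave 4 genes below WT for *bli ire1a*, 25 for *bli ire1b* and 26 for *bli*, and 1 below *bli* for *bli ire1b*. The medians against WT were then 0.0012, -0.22 and -0.22, that of *bli ire1a* with its sign turned, and 0.21 for *bli ire1a* against *bli*. A call by a 2-fold change and unadjusted p gave 0, 4 and 1 genes below WT for *bli ire1a*, *bli ire1b* and *bli*, 0 higher in *bli ire1a* than in *bli* and 1 higher in *bli ire1a* than in *bli ire1b*, since most changes were smaller than 2-fold. The share of all genes called in this way was not counted. Without a filter, which added genes to the adjustment, 16 genes were lower in *bli ire1a* than in WT, 21 were higher in *bli ire1a* than in *bli* and 9 higher than in *bli ire1b*. With only the compared groups fitted, which leaves fewer libraries to estimate the spread, these counts were 3, 8 and 8.

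Leaving out 1 library gave 10 to 37 genes lower in *bli ire1a* than in WT, 17 to 37 higher in *bli ire1a* than in *bli* and 8 to 32 higher in *bli ire1a* than in *bli ire1b*. Same-numbered libraries deviated together at most weakly, with r of -0.11 to 0.09 and a median of 0.05 over 18 pairs. The median was -0.02 over the 36 pairs of other numbers, and 6 of 12 libraries correlated best with their own number. Since these values were small, the libraries were not treated as paired, and a block was fitted as an alternative. A replicate block gave 32 genes below WT for *bli ire1a*, 43 for *bli ire1b* and 43 for *bli*, 30 higher in *bli ire1a* than in *bli*, 0 called in *bli ire1b* against *bli* and 17 higher in *bli ire1a* than in *bli ire1b*. Over all genes, scaling without the 43 genes gave 2195 genes above and 1297 below WT for *bli ire1a* instead of 1480 and 1624, and 1749 above and 1193 below *bli* instead of 1366 and 1579. The FPKM carry no read depth, so what depth limits could not be measured.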
